A study of Oryza sativa with 12 samples.

Results

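The genes described here bear the names of families that make jasmonate or carry its signal. For synthesis these are the lipoxygenases (LOX), allene oxide synthases (AOS), allene oxide cyclase (AOC) and oxophytodienoate reductases (OPR). The others are the conjugating enzyme OsJAR1, the COI receptors, and the JAZ repressors with the other TIFY genes. They were chosen by gene symbol or synonym alone, and whether each acts in the pathway was not tested. TIFY1A, TIFY2A and TIFY2B also carry the names GATA18, GATA17 and GATA20, and LOX3 the name r9-LOX1. The names gave 43 genes, and 39 of them had a probe set of their own on the array, among 17905 genes with one. The 39 comprised 18 synthesis genes, 1 conjugation gene, 3 receptor genes, 13 JAZ genes and 4 other TIFY genes. LOX4, OsOPR3, a further OPR gene that shares names with OsOPR1, and TIFY1B had none and were not analysed here.

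RNA of rice flag leaves was measured on 12 Affymetrix rice arrays. According to the labels, the plants were 10 weeks old, grown in a greenhouse, and either wild type or transgenic for PSARK::IPT, in which a senescence-associated promoter drives isopentenyltransferase, an enzyme of cytokinin synthesis. Each genotype was sampled watered and after 3 days without water before flowering, which gave 4 groups of 3 biological replicates, written WT_watered, WT_stressed, IPT_watered and IPT_stressed. The labels do not say how many independent transgenic lines or plants stood behind an array. Values are log2 intensities, on which a difference of 1 is a 2-fold change. Groups are given as mean ± SD of 3 arrays, and differences with the standard error of limma's fit.

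Jasmonate is made from linolenic acid in the plastid and the peroxisome. Lipoxygenases oxygenate the fatty acid, allene oxide synthase and allene oxide cyclase turn the product into oxophytodienoic acid, and an OPR reduces it before the chain is shortened. OsJAR1 joins jasmonic acid to isoleucine, and the conjugate brings a COI F-box protein together with a JAZ repressor, which is then degraded, so that the transcription factors it held back are released. JAZ genes are themselves known targets of that release, and in leaves the pathway is known for responses to wounding, herbivores and drought. No sequence of these genes was used here.

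Several measurements bear on what the labels mean. A reporter probe set on the array, made for a sequence foreign to rice, read 2.06, 2.35 and 6.03 when watered and 9.03, 8.71 and 9.19 when stressed on the WT arrays, and 2.15, 1.99 and 2.11 when watered and 9.86, 10.37 and 10.26 when stressed on the IPT arrays. All stressed arrays lay above all watered ones, the third WT_watered array lay between the others, and among the stressed arrays those labelled IPT were the higher. The biotinylated bacterial control transcripts, which are added to each hybridisation, averaged 10.36 to 11.74 on the 6 arrays labelled wild type and 7.77 to 8.35 on the 6 labelled IPT. The array carries 2 sets of GAPDH control probes, whose 3′ minus 5′ difference is used as a sign of RNA degradation or short labelled product. In the first set it was 0.27 to 1.14 on the arrays labelled wild type and 0.32 to 0.67 on those labelled IPT, which overlap, and in the second it was 4.86 to 7.30 and 3.34 to 4.29, which do not. Labelled genotype therefore cannot be told apart from these differences between arrays, and all directions below are those of the labels. The reporter was high on the arrays labelled WT_stressed and low on those labelled IPT_watered. Were these 2 labels exchanged, the reporter would separate the arrays by genotype, and the bacterial controls and second GAPDH set by water. The averaged water differences below would then be genotype differences and the reverse, JAZ2 and OsJAR1 included. Whether the labels match the plants was not tested. Of the 5 leaf genes, 4 were above background in all groups. Their group means were 13.01 to 13.49 for CAB2R, 12.72 to 13.49 for rca, 13.04 to 13.30 for OsrbcS and 9.61 to 10.44 for OsPSAG. RBCS1 was at background in all 4 groups. Of the markers of other organs, 7 of 10 floral organ genes, 3 of 7 anther genes, 4 of 5 genes of dividing cells and 1 of 2 root genes were at background in all 4 groups.

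The background level was taken from 106 probe sets for foreign sequences, as the 95th percentile of their group means, and was 3.62 (watered) and 4.10 (stressed) in WT, and 3.15 and 3.34 in IPT. Of the 39 jasmonate genes, 27 were above it in all 4 groups. LOX1.1, LOX3, AOS3, AOS4, OsOPR6, OsOPR12 and TIFY8 were at or below it in all 4, and AOS2, OsOPR4, OsOPR5, OsOPR8 and JAZ9 in some. Levels were not compared between genes, since probe sets differ in brightness.

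**Figure D1:**
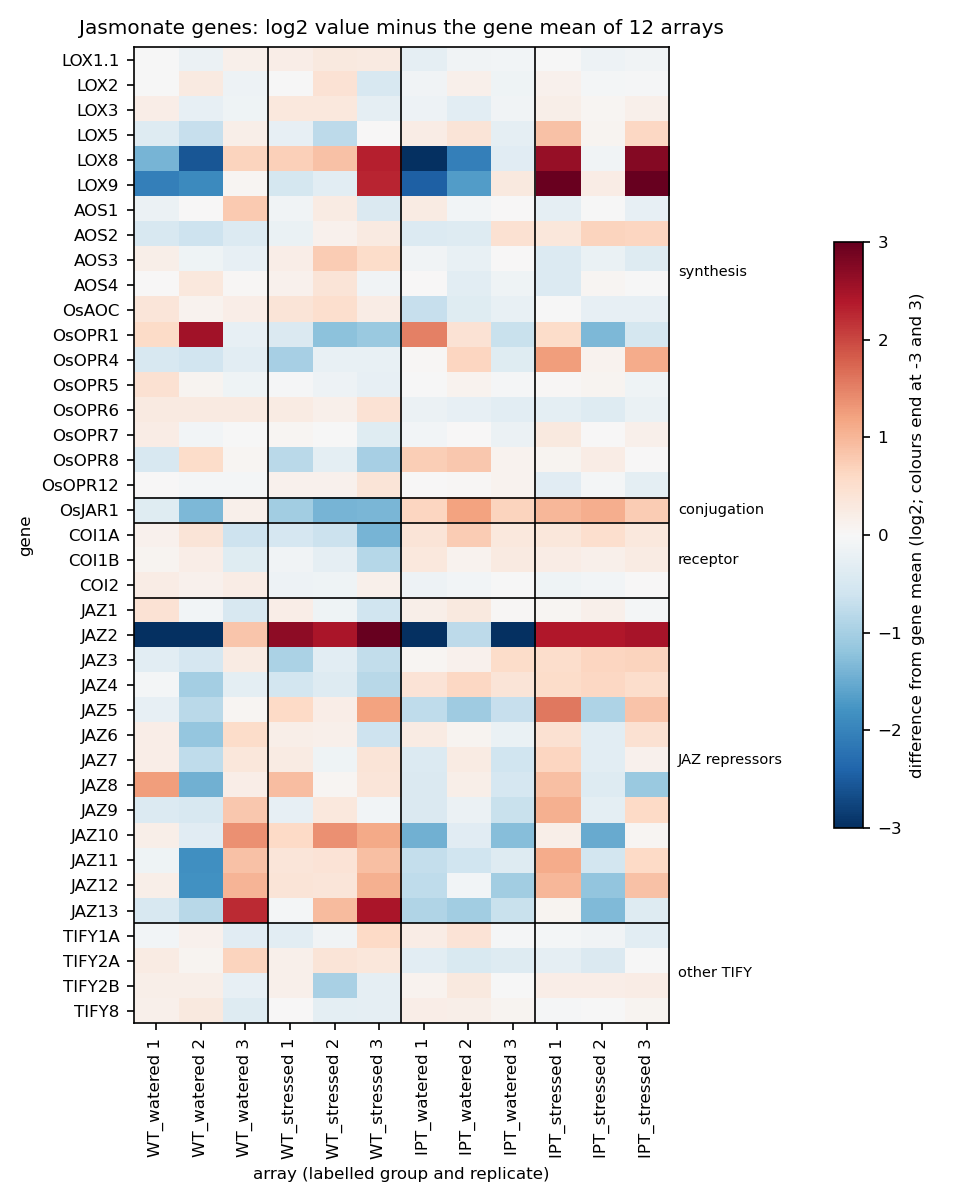
Heat map of the 39 jasmonate genes (rows, by role) on the 12 arrays (columns, by labelled group and replicate), coloured by the log2 value minus the gene's mean over 12 arrays, with the colour scale ending at -3 and 3. JAZ2 is higher on all arrays labelled stressed than on all labelled watered. LOX8 and LOX9 are higher on the stressed arrays on average but overlap with the watered ones. OsJAR1 is higher on all arrays labelled IPT.

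Of all 39 genes, JAZ2 alone was called between the water conditions averaged over both genotypes. It rose at least 23.9-fold in the arrays labelled stressed, taken with the 3 watered arrays that lay below background raised to that level. In the same comparison 0.409% of all 57194 probe sets were called, and 0.62% of the 17905 genes, so that 1 call in 39 genes (2.56%) rests on this gene alone. At an unadjusted p under 0.05, which 13.8% of probe sets passed, there were 9 jasmonate genes: JAZ2, JAZ5, JAZ11, LOX8, LOX9, AOS2, OsOPR1, OsOPR8 and COI1A. Within WT 0 genes were called and within IPT 0, against 0.42% and 0.177% of all probe sets, by limma with Benjamini-Hochberg adjustment. At an unadjusted p under 0.05 there were 10 and 8, beside 20.1% and 8.02% of probe sets, and other settings called 0 to 1 in WT and 0 to 8 in IPT. The 8 came with array weights, which called 8.69% of all probe sets within IPT.

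JAZ2, also named TIFY5, is one of the repressors that jasmonate removes. It read 1.99, 2.17 and 7.13 when watered and 8.97, 8.74 and 9.77 when stressed on the WT arrays, and 1.85, 5.49 and 3.17 when watered and 8.70, 8.70 and 8.76 when stressed on the IPT arrays. All 6 stressed arrays lay above all 6 watered ones, a separation in that direction seen in 0.259% of probe sets, and the watered arrays were spread widely while those of IPT_stressed were nearly equal. The highest watered value was that of the third WT_watered array, the one in which the reporter was also raised. The second IPT_watered array was the next highest for JAZ2, and its reporter value was 1.99.

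The averaged change of JAZ2 as fitted, with 3 arrays below background, was 5.31 ± 0.83 (adjusted p = 0.0243, limma). It was 5.40 ± 1.18 in WT (adjusted p = 0.0662) and 5.22 ± 1.18 in IPT (adjusted p = 0.131), and the difference between these was -0.18 (adjusted p = 0.968). Without the third WT_watered array the averaged change was 6.15 (adjusted p = 0.000355). The call was lost when any 1 of 6 other arrays was left out, with adjusted p up to 0.0808 and the change between 4.86 and 5.41. The JAZ2 probe set is of a kind that can match several transcripts, and another TIFY gene, JAZ11, carries OsJAZ2 as a synonym. JAZ11 had its own probe set here, with an averaged change of 0.93 ± 0.40 (adjusted p = 0.325).

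**Figure D2:**
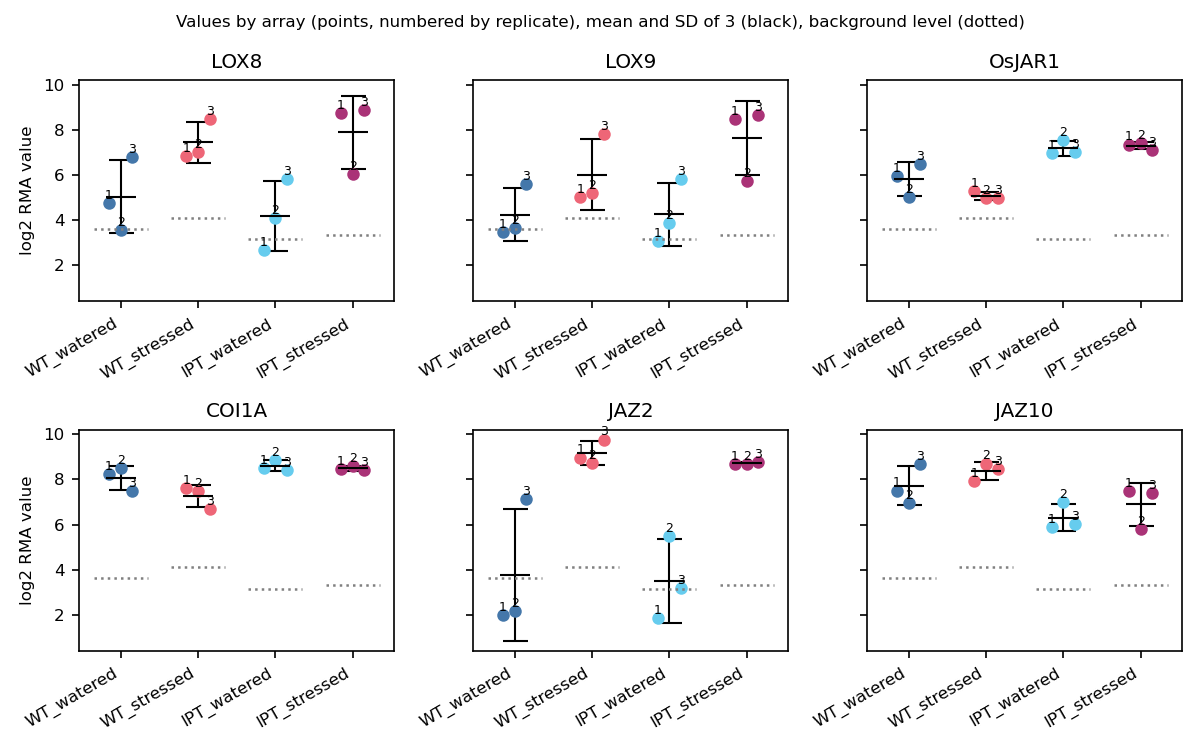
Values of LOX8, LOX9, OsJAR1, COI1A, JAZ2 and JAZ10 by labelled group, on a log2 scale (vertical axis, the same in all panels), with 1 numbered point per array, black bars for the mean and SD of 3 arrays and a dotted line for each group's background level. JAZ2 sits below background on 3 of the 6 watered arrays and between 8.70 and 9.77 on all 6 stressed ones, whereas OsJAR1 differs by labelled genotype.

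LOX8 and LOX9 are lipoxygenase genes that lie next to each other on chromosome 8 in the RefSeq assembly ASM3414082v1. LOX8 read 4.76, 3.57 and 6.81 when watered and 6.85, 7.02 and 8.48 when stressed on the WT arrays, and 2.69, 4.09 and 5.81 when watered and 8.76, 6.03 and 8.89 when stressed on the IPT arrays. The stressed and watered arrays did not overlap within either genotype, but the lowest IPT_stressed array lay below the highest WT_watered one. In each genotype 1 watered array was at or below background. The averaged change of LOX8 as fitted was 3.05 ± 0.70 (adjusted p = 0.0904), with 2.41 ± 0.98 in WT and 3.70 ± 0.98 in IPT (adjusted p = 0.206 and 0.217, limma).

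LOX9, chosen for description after its values were seen, read 3.48, 3.63 and 5.59 when watered and 5.02, 5.22 and 7.82 when stressed on the WT arrays, and 3.09, 3.86 and 5.82 when watered and 8.50, 5.75 and 8.67 when stressed on the IPT arrays. The groups overlapped in both genotypes, and the third array was the highest of its group in all 4 groups, as it was for LOX8. As for LOX8, 1 watered array in each genotype was at or below background. The averaged change of LOX9 as fitted was 2.58 ± 0.69 (adjusted p = 0.136). The 2 other LOX9 probe sets were dim and gave 0.36 ± 0.16 and 0.63 ± 0.20. LOX8 and LOX9 both passed the test when the second IPT_stressed array was left out, at 3.52 (adjusted p = 0.0204) and 3.06 (adjusted p = 0.0367), as did JAZ5 at 1.53 (adjusted p = 0.00626). Without that array 1056 of all 57194 probe sets were called, in place of 234.

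LOX1.1, LOX2, LOX3 and LOX5 had averaged water changes of -0.01 to 0.25, and none was called. Among the enzymes after the lipoxygenases, the smallest p for water was that of AOS2. It read 3.14, 2.99 and 3.21 when watered and 3.41, 3.74 and 3.89 when stressed on the WT arrays, and 3.21, 3.24 and 4.07 when watered and 3.95, 4.28 and 4.25 when stressed on the IPT arrays. The stressed arrays overlapped the watered ones only through the third IPT_watered array, and both WT means were at background. Its averaged water change as fitted was 0.61 ± 0.15 (adjusted p = 0.118), and 0.75 (adjusted p = 0.0246) without the third IPT_watered array. OsOPR1 had the most negative water change of the 39 genes, at -1.38 ± 0.50 (adjusted p = 0.244). Over the 18 synthesis genes, 11 water changes were positive, with a median of 0.11, where the median of all 17905 genes was -0.07.

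The JAZ genes as a group had mostly positive water changes. The averaged change was positive for 10 of 13, with a median of 0.45, beside 38.0% of all genes and their median of -0.07. Within WT it was positive for 10 of 13 with a median of 0.44, and within IPT for 12 of 13 with a median of 0.42, where all genes had medians of -0.18 and 0.01. Only JAZ2 passed the test.

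JAZ5, or TIFY9, came second in the group. It read 4.43, 3.86 and 4.75 when watered and 5.27, 4.89 and 5.88 when stressed on the WT arrays, and 3.93, 3.61 and 3.99 when watered and 6.26, 3.75 and 5.54 when stressed on the IPT arrays. The water conditions were apart in WT, and in IPT the second stressed array lay among the watered ones. The averaged change was 1.17 ± 0.36 (adjusted p = 0.18).

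**Figure D3:**
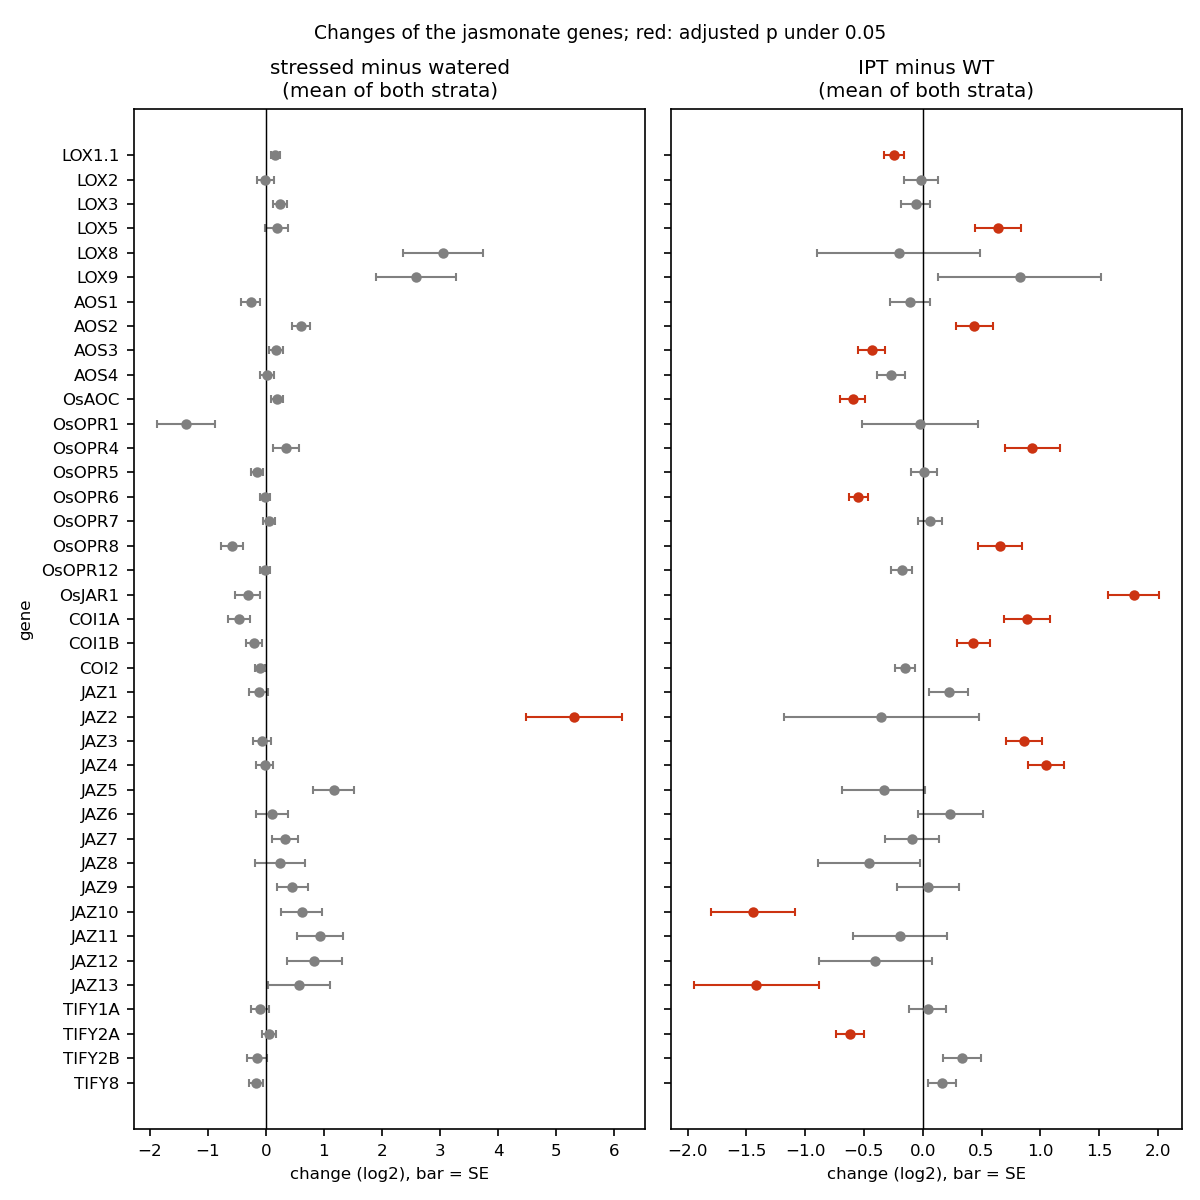
Averaged differences of the 39 jasmonate genes, stressed minus watered (left) and IPT minus WT (right), in log2 with bars of 1 standard error; red marks an adjusted p under 0.05. JAZ2 is the 1 red point on the left, and 16 genes are red on the right, 9 of them positive.

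Labelled genotype separated many more of the jasmonate genes, as it did probe sets in general. Averaged over the water conditions, 16 of 39 genes were called (41%), 9 higher and 7 lower in IPT, beside 51.2% of all probe sets (20.8% higher, 30.4% lower) and 49.3% of the 17905 genes (35.9% higher, 13.4% lower). The median difference of all genes was 0.19, against -0.02 for the jasmonate genes. The share called was thus no larger than the background. With the second GAPDH set's difference as a covariate in limma, 0 of the 39 and 110 of all probe sets were called. That covariate does not overlap between the labelled genotypes, so that the fit can hardly separate the 2: standard errors of the 16 differences were 1.95 to 2.88 times as large, and 9 differences were larger and 7 smaller than without it. With the first GAPDH set as the covariate, added after seeing the data, 12 of the 39 and 46.2% of probe sets were called. Outside the fit with the second set, 8 of the 16 kept their call in each setting that gave a value and 8 lost it at least once. Of the 7 called lower, LOX1.1, AOS3 and OsOPR6 were at background in all groups. Between the watered groups 5 genes were called (12.8%, against 19.2% of probe sets), and between the stressed groups 15 (38.5%, against 46.1%).

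OsJAR1, which makes the active jasmonoyl-isoleucine, had the largest genotype difference of the 39. It read 5.98, 5.01 and 6.49 when watered and 5.30, 4.97 and 4.98 when stressed on the WT arrays, and 6.99, 7.57 and 7.01 when watered and 7.35, 7.44 and 7.12 when stressed on the IPT arrays. All 6 arrays labelled IPT lay above all 6 labelled wild type, as 11.1% of probe sets did. OsJAR1 was higher in IPT by 1.36 ± 0.30 when watered (adjusted p = 0.00971) and by 2.23 ± 0.30 when stressed (adjusted p = 0.000227, limma), and the averaged difference was 1.79 ± 0.21 (adjusted p = 5.32e-05).

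With water withheld, OsJAR1 differed by -0.75 ± 0.30 in WT (adjusted p = 0.203) and by 0.12 ± 0.30 in IPT (adjusted p = 0.999). The difference between these responses, 0.87 ± 0.43, did not pass the test (adjusted p = 0.378). With the second GAPDH set in the fit, the averaged genotype difference of OsJAR1 was 0.38 ± 0.42 (adjusted p = 0.675), and with the first set it was 1.85 ± 0.25 (adjusted p = 0.000231). With the second set that of COI1A was 1.45 ± 0.53 (adjusted p = 0.201).

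Of the 3 receptor genes, both COI1 genes were higher in IPT. COI1A read 8.22, 8.49 and 7.48 when watered and 7.60, 7.47 and 6.70 when stressed on the WT arrays, and 8.50, 8.88 and 8.43 when watered and 8.46, 8.60 and 8.42 when stressed on the IPT arrays. The stressed genotypes were apart and the watered ones overlapped between 8.43 and 8.49. The averaged difference was 0.89 ± 0.19 (adjusted p = 0.00275), with 1.24 ± 0.27 when stressed (adjusted p = 0.00388, or 0.0501 with quantile normalization) and 0.54 ± 0.27 when watered (adjusted p = 0.188).

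COI1B read 9.58, 9.71 and 9.14 when watered and 9.40, 9.24 and 8.66 when stressed on the WT arrays, and 9.82, 9.60 and 9.78 when watered and 9.72, 9.65 and 9.75 when stressed on the IPT arrays. It too was apart between the stressed groups, by 0.61 ± 0.20 (adjusted p = 0.0259), and averaged 0.43 ± 0.14 higher in IPT (adjusted p = 0.0223). The stressed call was kept in 15 of 22 other settings: it was lost with the second GAPDH set, in a fit of the stressed arrays alone (adjusted p = 0.0533), with quantile normalization (0.33, adjusted p = 0.232), without the third WT_stressed array (0.38, adjusted p = 0.0781) and without any 1 of the IPT_stressed arrays (adjusted p up to 0.0723). The averaged call was lost with quantile normalization too (0.23, adjusted p = 0.213). COI2 read 8.91, 8.82 and 8.91 when watered and 8.54, 8.56 and 8.85 when stressed on the WT arrays, and 8.53, 8.61 and 8.67 when watered and 8.56, 8.62 and 8.69 when stressed on the IPT arrays. Its averaged genotype difference was -0.15 ± 0.08 (adjusted p = 0.151). The receptor genes' water changes were -0.46, -0.20 and -0.11 for COI1A, COI1B and COI2, and none was called.

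The JAZ genes did not share a direction between genotypes: JAZ3 and JAZ4 were called higher in IPT, JAZ10 and JAZ13 lower, and 9 were not called. JAZ4, or TIFY6B, read 9.07, 8.09 and 8.83 when watered and 8.58, 8.73 and 8.28 when stressed on the WT arrays, and 9.53, 9.75 and 9.51 when watered and 9.66, 9.75 and 9.66 when stressed on the IPT arrays. All IPT arrays lay above all WT arrays, and the averaged difference was 1.04 ± 0.15 (adjusted p = 0.000213). The other, dimmer probe set of JAZ4 did not show it, at -0.06 ± 0.17 (adjusted p = 0.801), and the brighter set is of a kind that may cross-match other transcripts.

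JAZ3, or TIFY6A, read 6.60, 6.41 and 7.15 when watered and 5.94, 6.58 and 6.16 when stressed on the WT arrays, and 6.96, 7.03 and 7.47 when watered and 7.44, 7.55 and 7.56 when stressed on the IPT arrays. The stressed genotypes were far apart and the watered ones overlapped. It was higher in IPT by 1.29 ± 0.22 when stressed (adjusted p = 0.00081) and by 0.44 ± 0.22 when watered (adjusted p = 0.178). The difference between its water responses in the 2 genotypes was 0.85 ± 0.31 (adjusted p = 0.279).

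JAZ10, or TIFY11B, read 7.51, 6.98 and 8.69 when watered and 7.92, 8.71 and 8.46 when stressed on the WT arrays, and 5.88, 6.99 and 6.04 when watered and 7.50, 5.82 and 7.39 when stressed on the IPT arrays. The stressed groups were apart, and the watered ones met at 6.98 in WT and 6.99 in IPT. It fell by 1.44 on the log2 scale in IPT on average (SE 0.36, adjusted p = 0.00583), whereas its other probe set gave -0.06 ± 0.27 (adjusted p = 0.876). With both probe sets averaged the difference was -0.75 (adjusted p = 0.0708). The called probe set is, as for JAZ2, of a kind that can match several transcripts. JAZ10 was also called lower between the stressed groups, and 14 of 22 other settings kept that call. JAZ10, JAZ11 and JAZ9 lie side by side on chromosome 3, and JAZ11 and JAZ9 were not called, at -0.19 ± 0.40 and 0.04 ± 0.26.

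JAZ13, or TIFY11E, read 3.90, 3.55 and 6.61 when watered and 4.33, 5.32 and 6.82 when stressed on the WT arrays, and 3.48, 3.33 and 3.72 when watered and 4.48, 3.05 and 3.99 when stressed on the IPT arrays. The third array of each WT group stood well above its group, and the genotypes overlapped. It fell by 1.42 in IPT on average (SE 0.53, adjusted p = 0.0423), a call that most other settings lost, with -0.93 (adjusted p = 0.0692) without the third WT_watered array.

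Among the synthesis genes 4 were called higher and 4 lower in IPT. OsAOC, the cyclase, read 7.85, 7.58 and 7.68 when watered and 7.86, 7.97 and 7.70 when stressed on the WT arrays, and 6.79, 7.12 and 7.25 when watered and 7.46, 7.23 and 7.23 when stressed on the IPT arrays. All IPT arrays lay below all WT arrays, as 13.8% of probe sets did. It fell by 0.60 on the log2 scale on average (SE 0.10, adjusted p = 0.000744), a 1.51-fold difference.

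OsOPR4 read 3.55, 3.45 and 3.71 when watered and 3.02, 3.79 and 3.79 when stressed on the WT arrays, and 4.06, 4.65 and 3.65 when watered and 5.27, 4.13 and 5.14 when stressed on the IPT arrays. Both WT groups were at background, so the stressed IPT mean was at least 1.68-fold higher, taken against the background level (adjusted p = 0.00734). OsOPR8 read 4.26, 5.29 and 4.79 when watered and 3.93, 4.45 and 3.75 when stressed on the WT arrays, and 5.48, 5.54 and 4.85 when watered and 4.82, 4.97 and 4.75 when stressed on the IPT arrays. It was higher in IPT when stressed, also at least 1.68-fold against a WT_stressed mean at background (adjusted p = 0.0286), a call kept in 13 of 21 other settings and lost, among others, without any 1 of 5 stressed arrays (adjusted p 0.0564 to 0.081). The part that most rice OPR genes other than OsOPR7 play in jasmonate synthesis is less certain. OsOPR7, the rice OPR known to reduce the jasmonate precursor, was bright and level at group means of 7.90 to 8.15 and was not called in any comparison.

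LOX5 read 5.35, 5.07 and 5.92 when watered and 5.51, 4.97 and 5.76 when stressed on the WT arrays, and 5.98, 6.12 and 5.48 when watered and 6.62, 5.83 and 6.37 when stressed on the IPT arrays. The genotypes were apart only when stressed, and the averaged difference was 0.64 ± 0.20 (adjusted p = 0.0191), or 0.20 (adjusted p = 0.422) with quantile normalization and 0.57 (adjusted p = 0.0616) with the first GAPDH set. AOS2 was called higher in IPT on average (adjusted p = 0.0327), with both WT means at background, so that no exact difference is given. The call was kept in 11 of 20 other settings and lost with either GAPDH set (adjusted p = 0.0517 with the first), with array weights (adjusted p = 0.0657) and without any 1 of 6 arrays (adjusted p 0.0534 to 0.0728). Between the stressed groups AOS2 was at least 1.04-fold higher in IPT, which was not called (adjusted p = 0.0879).

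The remaining called synthesis genes were at background in all groups, so that no fold is given. LOX1.1 read 2.45, 2.27 and 2.61 when watered and 2.66, 2.75 and 2.72 when stressed on the WT arrays, and 2.19, 2.34 and 2.36 when watered and 2.44, 2.31 and 2.34 when stressed on the IPT arrays. AOS3 read 3.10, 2.78 and 2.68 when watered and 3.13, 3.67 and 3.46 when stressed on the WT arrays, and 2.82, 2.69 and 2.93 when watered and 2.52, 2.73 and 2.54 when stressed on the IPT arrays. Both lay in the range of the foreign-sequence probe sets, whose level was itself higher in WT_stressed than in the other groups.

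OsOPR6 read 2.90, 2.90 and 2.91 when watered and 2.89, 2.79 and 3.07 when stressed on the WT arrays, and 2.45, 2.38 and 2.32 when watered and 2.33, 2.24 and 2.44 when stressed on the IPT arrays. OsOPR12 read 2.98, 2.91 and 2.92 when watered and 3.09, 3.11 and 3.37 when stressed on the WT arrays, and 2.99, 3.02 and 3.07 when watered and 2.64, 2.91 and 2.68 when stressed on the IPT arrays. For OsOPR6 the genotypes were apart in both water conditions, and for OsOPR12 only the stressed ones differed as called (adjusted p = 0.00218 and 0.0114 between the stressed groups). With quantile normalization both calls were lost (adjusted p = 0.0853 and 0.338).

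TIFY2A, a TIFY gene without a JAZ number, read 7.64, 7.49 and 8.08 when watered and 7.55, 7.79 and 7.74 when stressed on the WT arrays, and 7.10, 6.95 and 7.01 when watered and 7.14, 6.97 and 7.40 when stressed on the IPT arrays. All IPT arrays lay below all WT arrays. It fell by 0.62 on average (SE 0.12, adjusted p = 0.00119). The other 3 TIFY genes were not called in any comparison.

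No jasmonate gene passed the test of a difference between the water responses of the 2 genotypes: 0 of 39 were called by limma with Benjamini-Hochberg adjustment, and 0% of all probe sets, with the smallest adjusted p at 0.249. At an unadjusted p under 0.05, which 14.3% of probe sets passed, there were 3, AOS3, OsOPR12 and JAZ3, the first and second of them at background. The difference, IPT minus WT, was positive for 30 of 39 genes with a median of 0.14, where 67.0% of all genes were positive with a median of 0.21.

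Within the groups, many JAZ genes were high or low on the same array. In WT_watered the second array was the lowest for 11 of 13 JAZ genes, with a median of -0.75 from the group mean, and the third was the highest for 10 of 13, with a median of 0.69. In IPT_stressed the first array was the highest for 9 of 13 (median 0.60) and the second the lowest for 9 of 13 (median -0.52). For the 8 JAZ genes with TIFY10 or TIFY11 names, a subset that is not one of the roles above, these counts were 8, 7, 8 and 7 of 8. Over all 39 genes, JAZ genes included, they were 23, 20, 18 and 22, with medians of -0.17, 0.14, 0.05 and -0.07. The same counts were not made over all probe sets, so that a shift of whole arrays was not tested.

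Among the synthesis genes the second WT_watered array was the lowest for 9 of 18, with a median of -0.12, and the first IPT_stressed array was the highest for 8 of 18, with a median of 0.06. JAZ2 hardly differed between the arrays in IPT_stressed, where the SD of its 3 values was 0.04, although its second array was by a small margin the lowest and is counted as such. In these bulk leaf samples fewer cells of a type and less RNA per cell cannot be told apart, and differences in handling between leaves were not tested.

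**Figure D4:**
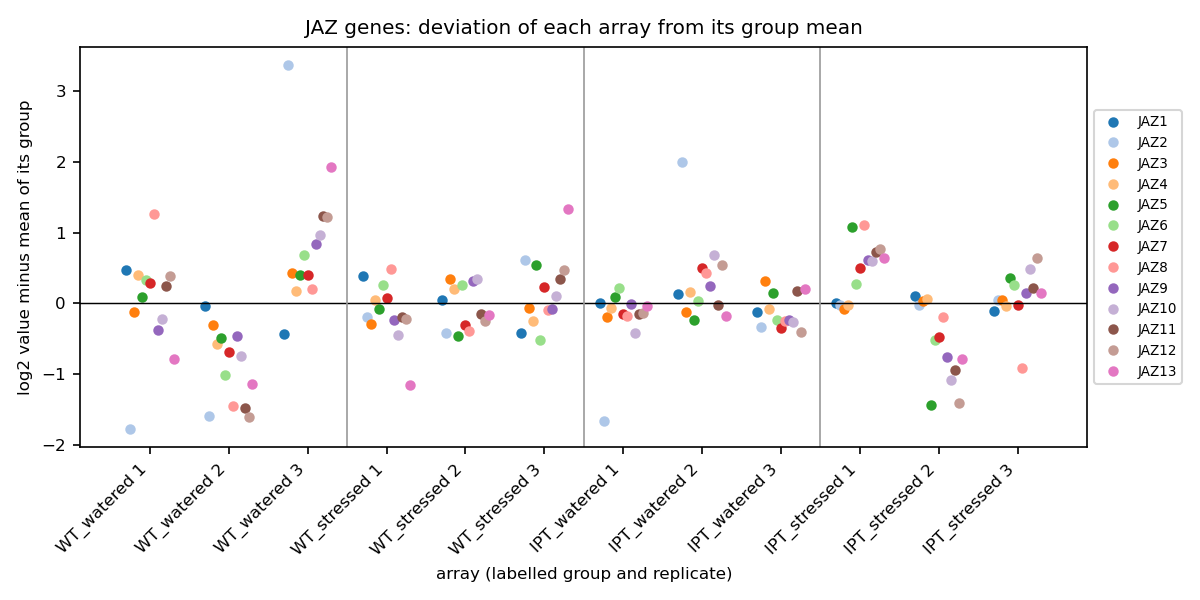
Each of the 13 JAZ genes (coloured points) on each array (horizontal axis), as the log2 value minus the mean of its labelled group. The points of the second WT_watered array and the second IPT_stressed array lie mostly below 0 and those of the third WT_watered array and the first IPT_stressed array mostly above it.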

How the data were processed

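Flag leaf RNA of 12 samples was measured on 1 Affymetrix array each. The authors deposited log2 values made with RMA, per the submitters' processing notes; its software and version are not given in the sources used here. RMA corrects background, equalises arrays and summarises a probe set, which can shift low values most. The values were used as deposited. Of 57381 probe sets, 123 controls and 64 reporters were left out and 57194 were tested; 22436 were tied to 1 gene, 95 to several and 34663 to none listed. Gene names came from the array annotation and RefSeq assembly ASM3414082v1, used for names and neighbours only. The brightest probe set over 12 arrays stood for a gene.

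limma 3.58.1 in R 4.3.3 (lmFit, eBayes) fitted 1 mean per group over all 12 arrays, with 8 residual degrees of freedom, after a check on simulated data. Benjamini-Hochberg adjustment ran over all probe sets, and a call is an adjusted p under 0.05. With 3 arrays a group the precision is limited. A p-value here sets a difference against the spread between arrays, which limma moderates over all probe sets. The labels do not say whether that spread is the one between plants or lines. All 12 values are given for OsJAR1, JAZ2, the COI genes, each gene called in any of 7 contrasts, and the 2 genes per role with the smallest p in each averaged contrast. The genes, lists and tests were chosen with earlier results of these data known. Replicate numbers recur in the groups, and a block of them was an alternative. Alternatives were the normalization, limma's options, a minimum mean, all probe sets of a gene, a GAPDH covariate (the second of 2 control sets, or the first, added after seeing the data), a replicate block, fits of the compared arrays alone, and leaving out each array.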

Additional observations from a re-analysis of the deposited data

Results flagged for a closer look

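Reporter probe sets, which match sequences foreign to rice and took no part in the comparisons, gave signal in some groups more than 1 log2 unit above background and above every WT_watered array. The reporter described at the start of the results averaged 8.98 ± 0.24 (SD, n = 3) in WT_stressed and 10.16 ± 0.27 in IPT_stressed, beside 3.48 ± 2.21 in WT_watered. A further one averaged 7.68 ± 0.60 in WT_stressed and 7.97 ± 0.46 in IPT_stressed, beside 2.61 in WT_watered. One averaged 6.37 ± 0.26 in WT_stressed, where WT_watered was already at 5.20, and one 4.22 ± 0.07 in IPT_watered, beside 3.97. The first and second were higher on the arrays labelled stressed in both genotypes, as JAZ2 was, and in the first the stressed arrays labelled IPT were all above those labelled wild type.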

How the results depend on the processing

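Of 50 gene changes followed over 22 alternative settings, 48 kept their direction in every one that gave a value. The exceptions were the genotype differences of JAZ2, not called in the main setting: the watered one became 1.42 and the averaged one 0.49 without the third WT_watered array, and 0.57 and 0.06 without the first IPT_watered array; over the arrays left out they ran from -1.26 to 1.42 and from -0.85 to 0.49. With the second GAPDH set as a covariate, which does not overlap between genotypes, the genotype counts of 5 watered, 15 stressed and 16 averaged became 0, 0 and 0, with standard errors 1.95 to 2.88 times as large for the 16, and with the first set, an alternative chosen after seeing the data, 6, 14 and 12, whereas JAZ2 kept its water call (6.22, adjusted p = 0.0139, with the second set). For the stressed genotypes, quantile normalization gave 8 calls, beside 15409 of all 57194 probe sets in place of 26357. A minimum mean of 5 gave 9 of the 25 genes tested, beside 7634 of 15303 probe sets. That minimum also gave 9 for the averaged genotypes, with fewer genes tested, beside 8417 of 15303 probe sets. The averaged water count of 1 became 0 with a trended, robust variance (JAZ2 adjusted p = 0.0604). It became 3 with the replicate block, which added LOX8 (adjusted p = 0.0141) and LOX9, beside 0.962% of all probe sets in place of 0.409%. The block gave 2 calls in IPT between the water conditions, beside 0.502% of all probe sets in place of 0.177%. In the same comparison array weights gave 8, beside 8.69% of all probe sets, and the cause was not tested. Deviations of arrays with the same number correlated at -0.10 to 0.19 (median 0.09), with 9 of 18 pairs over 0.1, beside 1 of 36 pairs with different numbers (median -0.02). Of the 12 arrays, 11 correlated best with one of their own number, a hint from the data, but no label says what a number shares, so they were not treated as pairs. Leaving out 1 array at a time gave 0 to 1 calls between water conditions in WT, 0 to 2 in IPT and 0 to 4 averaged. The 4 came without the second IPT_stressed array, beside 1056 of all probe sets in place of 234. Between genotypes it gave 4 to 6 when watered, 9 to 16 when stressed and 13 to 16 averaged. The 9 came without the first IPT_stressed array, beside 19797 of all probe sets in place of 26357. The difference of the water responses gave 0 calls in each setting.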

Other observations

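Of the other jasmonate genes on the list, 8 had a probe set. The co-repressors and their adaptor, which JAZ proteins recruit to their targets, were higher in the arrays labelled IPT: TPR3 by 0.91 ± 0.10 (adjusted p = 2.39e-05, limma), OsTPR2 by 0.33 ± 0.09 (adjusted p = 0.0113) and NINJA1 by 0.32 ± 0.08 (adjusted p = 0.00697). The probe sets of OsTPR2 and NINJA1 are of kinds that can match other transcripts too. JAMYB, a jasmonate-responsive MYB factor, was also called higher in IPT (adjusted p = 0.00165). Its means were 2.60 and 2.66 in WT and 3.11 in IPT_watered, all at background, and 3.87 in IPT_stressed, so that no size is given. In all, 5 of the 8 were called higher and 0 lower, beside 20.8% of probe sets and 35.9% of the 17905 genes called higher. Water gave 0 calls among the 8. PBZ1, a pathogenesis-related protein gene, read 8.59, 8.02 and 7.49 in WT_watered, 9.65, 7.60 and 10.32 in WT_stressed, 8.94, 9.48 and 8.25 in IPT_watered, and 11.31, 10.03 and 11.32 in IPT_stressed. The water conditions were apart in IPT and overlapped in WT, and the averaged changes were 1.57 ± 0.43 with water withheld (adjusted p = 0.143) and 1.28 ± 0.43 in IPT (adjusted p = 0.0275). LIS, a linalool synthase gene, had an averaged water change of 2.15 ± 0.54 (adjusted p = 0.115), and its 3 IPT_watered arrays lay between 3.36 and 3.51, below all IPT_stressed ones. BHLH148 and salT were called in neither averaged comparison.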
